A study of Mus musculus with 9 samples.

Results

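The major histocompatibility complex (MHC) genes and their loading machinery were followed in the left ventricle of mice. Members were all rows whose symbol started with H2-, plus B2m, Cd74, Ciita, Tap1, Tap2, Tapbp and Nlrc5, with a rounded count of at least 5 in at least 2 of the 9 libraries. Of 33 such rows among 20634 genes, 29 were kept, and the class II beta chain H2-Eb2 and the class I symbols H2-M5, H2-M6-ps and H2-Q1 were not. Kept members comprised 2 classical class I heavy chains, 10 class Ib genes (less polymorphic heavy chains and their pseudogenes), 4 genes of class I assembly, the class I transactivator, 3 class II chains, 6 genes of class II loading, the class II transactivator and 2 other rows with an H2- symbol. Of these, 28 passed the filter on low counts and were tested, and H2-Oa was not.

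Total RNA of the left ventricle had been sequenced in a 2 by 2 design of genotype and drug. All mice were C57BL/6 and 6 months old, and all had running wheels at intervals, which served to bring out the cardiomyopathy. Wild-type mice (WT) and mice lacking delta-sarcoglycan (KO), a dystrophin-associated membrane protein whose loss causes muscular dystrophy with heart disease, drank either plain water from weaning (vehicle) or water dosed with ifetroban at 25 mg/kg/day. Ifetroban blocks the thromboxane-prostanoid (TP) receptor. The KO ifetroban group held 3 libraries and the other groups 2 each, from hearts rinsed with PBS before RNA isolation. The labels give neither the sex of the mice nor whether replicates were separate animals, so p-values measure only the spread between these libraries, which may be technical.

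Class I molecules pair a polymorphic heavy chain with beta-2 microglobulin and show peptides, cut by the proteasome and pumped into the endoplasmic reticulum by the TAP transporter, to CD8+ T cells on nearly all nucleated cells. Class II molecules pair an alpha and a beta chain, travel with the invariant chain (Cd74) to the endosome, receive peptide there with the help of H2-DM, and are found mainly on macrophages, dendritic cells and B cells. NLRC5 drives class I genes and CIITA drives class II genes, and neither binds DNA by itself: both are recruited to an X and Y box module close to the start site. C57BL/6 mice carry the H2b haplotype, which has no functional I-E alpha chain, so the H2-Eb1 transcript has no partner for a surface I-E molecule.

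Library totals ran from 21510263 to 30182955 counts. Levels are given as CPM, counts scaled to the library size and to edgeR's trimmed mean of M-values (TMM), and differences as log2 fold changes with their standard error (SE). Cardiomyocyte genes were abundant in every library, with 8 markers summing to 49460 to 57360 CPM in WT and 41360 to 50960 CPM in KO. No replicate pair differed by as little as counting noise (chi-square per degree of freedom 11.8 to 70.7 over 6 pairs), so none was merged. That does not show that they are separate animals, and the 3 largest values (55.3, 65.6 and 70.7) were those of the pairs that lay on opposite sides of the length split described next. Libraries also split by transcript length: the rank correlation, across genes, of a gene's deviation from its mean with its length was -0.55 to -0.42 in 4 libraries (the one labelled WT vehicle 1, both KO vehicle, KO ifetroban 1) and 0.42 to 0.46 in the other 5. The negative side held 3 of 4 vehicle and 1 of 5 ifetroban libraries, and 3 of 5 KO and 1 of 4 WT libraries, so the length split overlapped in part with treatment and with genotype. Fits with the split as a term, or within 1 side where both groups had a library, are given with each comparison. Sgcd, the deleted gene, stood at 20.9 to 23.7 CPM in 3 WT libraries, at 7.30 to 13.3 CPM in the 5 KO libraries and at 8.36 CPM in the library labelled WT vehicle 1, whose level was thus in the KO range. Gene-level counts do not show which exons these reads came from. KO ifetroban 1 carried ifetroban in its title and source name and vehicle in its treatment field, and was analysed as ifetroban. Results were also computed without either or both of these libraries.

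Most promoters found for class II and class I members carried letters of the Y box. Letters of an X box form were found in 3 class II promoters and in no class I promoter. Printed are H2-Aa and H2-DMb1, which rose in KO, H2-Eb1, whose genotypes did not overlap, as described below, and B2m, a class I counterpart. Each runs 5′ to 3′ on the gene's own strand from 250 bases before to 50 after the start, from RefSeq on GRCm38.p6. Capitals mark GATTGG, the core of the Y box, AACNGATG, the end of an X box form, and AAANNGAAA, the inner letters of an interferon-stimulated response element, on either strand. H2-Aa lies at chr17:34287774-34288073 (minus strand), H2-Eb1 at chr17:34305617-34305916 (plus), H2-DMb1 at chr17:34152941-34153240 (plus) and B2m at chr2:122147437-122147736 (plus).
H2-Aa: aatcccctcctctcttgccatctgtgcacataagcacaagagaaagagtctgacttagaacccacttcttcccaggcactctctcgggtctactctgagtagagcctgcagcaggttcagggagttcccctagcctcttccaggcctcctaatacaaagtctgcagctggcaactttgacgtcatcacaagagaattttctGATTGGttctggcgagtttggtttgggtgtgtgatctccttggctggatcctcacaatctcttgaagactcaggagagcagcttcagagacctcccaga
H2-Eb1: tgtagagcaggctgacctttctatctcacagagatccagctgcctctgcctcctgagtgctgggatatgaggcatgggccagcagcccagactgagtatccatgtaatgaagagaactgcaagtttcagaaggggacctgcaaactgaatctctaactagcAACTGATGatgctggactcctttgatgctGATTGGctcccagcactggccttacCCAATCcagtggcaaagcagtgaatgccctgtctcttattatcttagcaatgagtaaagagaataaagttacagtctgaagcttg
H2-DMb1: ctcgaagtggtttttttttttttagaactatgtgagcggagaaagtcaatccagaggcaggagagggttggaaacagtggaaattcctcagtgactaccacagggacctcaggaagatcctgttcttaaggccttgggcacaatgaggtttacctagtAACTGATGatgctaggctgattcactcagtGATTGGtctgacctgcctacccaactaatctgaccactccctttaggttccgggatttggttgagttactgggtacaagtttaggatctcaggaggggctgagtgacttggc
B2m: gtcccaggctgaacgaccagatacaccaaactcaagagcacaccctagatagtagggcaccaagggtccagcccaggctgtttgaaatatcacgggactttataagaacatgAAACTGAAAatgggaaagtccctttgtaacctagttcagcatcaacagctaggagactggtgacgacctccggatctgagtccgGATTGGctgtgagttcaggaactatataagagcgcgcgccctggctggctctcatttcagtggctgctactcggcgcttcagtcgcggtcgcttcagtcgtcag

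GATTGG began 49 bases before the start in H2-Aa, 62 in H2-DMb1, 54 in B2m, and 60 and, on the opposite strand, 35 in H2-Eb1. AACNGATG began 89 bases before the start of H2-Eb1 and 92 bases before that of H2-DMb1, so in both it lay upstream of GATTGG. In B2m, AAANNGAAA began 138 bases before the start. A promoter entry was used for 20 of the 29 kept members, with 22 windows, and both strands were searched. GATTGG was in 18 of the 22 windows, against 16.1% of all 32851 windows of that length. The longer form CTGATTGG, which contains GATTGG, was in 10 of 22 windows and 4.10% of all. AACNGATG was in 3 of 22 (H2-Eb1, H2-DMb1 and H2-DMb2) and 2.32% of all, and AAANNGAAA in 5 of 22 (B2m, H2-DMa, H2-Oa, H2-T22 and H2-T23) and 10.6% of all. The H2-DMa window, from 34125268, lay upstream of the start deposited for that gene, 34135182, so its matches are not near that start. H2-K1 had overlapping windows, from 34000284 and 34000298, each counted among the 22. These matches describe letters in these windows and are no measure of binding.

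Per kilobase of merged exon, mean levels over the 9 libraries were highest for B2m at 171 CPM, H2-D1 at 64.3, Cd74 at 41.9 and H2-K1 at 39.02 CPM. The class II chain genes came lower, H2-Eb1 at 12.4, H2-Ab1 at 10.2 and H2-Aa at 7.52 CPM. Ciita at 0.165, H2-Oa at 0.143 and H2-Q10 at 0.114 CPM were lowest. Division by the longest transcript instead put H2-K1 at 61.2 CPM, above Cd74 at 49.9 CPM, and H2-Ab1 at 21.6 CPM, so the order of these neighbours depends on the length used. It also depended on genotype: per kilobase of merged exon, Cd74 stood at 29.98 CPM ± 4.22 (SD, n = 4) against 34.8 ± 5.73 for H2-K1 in WT, and at 51.4 ± 8.60 (SD, n = 5) against 42.4 ± 4.42 in KO. The deposited tables place 25 of the 29 kept members on chromosome 17, with B2m on chromosome 2 (122147686 to 122153083), Cd74 on chromosome 18 (60803848 to 60812646), Ciita on chromosome 16 (10488178 to 10527564) and Nlrc5 on chromosome 8 (94472763 to 94527272), all in mm10. H2-Aa spans 34282744 to 34287827, H2-Ab1 34263209 to 34269418, H2-Eb1 34305877 to 34316199 and the heavy chain gene H2-K1 33996017 to 34000333 of chromosome 17, and H2-D1 lies at 35262730 to 35267499. Values were not whole numbers in all 9 libraries for 13 of 29 members, among them H2-D1, H2-K1 and H2-DMb1, and whole in every library for B2m, H2-Eb1, Ciita and Nlrc5. Whole values were also found in every library for the class Ib genes H2-M3 and H2-T24, and values that were not whole in 7 libraries for Cd74. How the counting split reads between near-identical copies is not known, and the levels of H2-D1, H2-K1, H2-DMb1, H2-DMb2 and the class Ib genes H2-Q4, H2-Q5, H2-Q6, H2-Q7, H2-Q10, H2-T10, H2-T22 and H2-T23 are uncertain to that extent. Of the 50-base words of each gene, 12.8% in H2-D1, 9.63% in H2-K1, 34.5% in H2-T22 and 22.7% in H2-DMb1 occurred in another gene, against 0% in H2-Eb1, H2-Ab1, Cd74 and B2m and 0.488% in H2-Aa. Tap1 overlaps Psmb9, Ciita overlaps Dexi, Tap2 overlaps Gm15821, Tapbp overlaps Gm19412 and H2-Q4 overlaps Gm11131, each on the opposite strand. H2-T22, H2-T23 and H2-T24 likewise overlap A930015D03Rik. With strandedness not given in the sources used here, reads in the shared stretches of these pairs cannot be told apart. On the same strand, Tapbp overlaps Zbtb22 and H2-Ke6 overlaps Gm20427.

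With genotype fitted over both treatments, 4 genes of class II chains and loading were higher in KO hearts, and no class I gene passed the threshold with edgeR. H2-Aa (alpha chain of I-A), H2-Ab1 (its beta chain), Cd74 and H2-DMb1 (a chain of the peptide-loading H2-DM dimer) passed the threshold, all higher, which makes 4 of the 28 members, against 2.06% of the 15549 genes tested that were called higher. All 8 tested class II chain and loading genes had a positive fold change, with a median log2 fold change of 0.76 and a range of 0.05 to 1.22, where the median over all genes was -0.02. Among 16 class I chain and assembly genes the median was 0.13, from -0.02 to 0.42, 14 were positive and none passed, with 5 at an unadjusted p below 0.05. DESeq2 called 7 members, adding H2-DMa, H2-Eb1 and the class Ib gene H2-T22, against 4.08% of genes called higher, and limma-voom called the same 4 as edgeR. Of all 28 members, 11 reached that unadjusted level, all higher, against 9.31% of genes, and the members' median was 0.22. In 5 members the highest WT library lay below the lowest KO library, against 4.62% of genes: H2-Aa, H2-Ab1, H2-Eb1, Cd74 and H2-DMb1, all of class II.

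H2-Aa stood at 16.3 and 22.8 CPM in the pair labelled WT vehicle 1 and 2, at 23.7 and 18.4 CPM in WT ifetroban 1 and 2, at 35.5 and 29.8 CPM in KO vehicle 1 and 2, then at 36.5, 31.6 and 42.5 CPM in KO ifetroban 1 to 3. Its lowest KO library, KO vehicle 2, was above its highest WT library, WT ifetroban 1, and the means were 20.3 CPM ± 3.52 (SD, n = 4 WT) and 35.2 CPM ± 4.93 (SD, n = 5 KO). The log2 fold change was 0.77 (SE 0.14, edgeR quasi-likelihood test with Benjamini-Hochberg adjustment, adjusted p = 0.0204).

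H2-Ab1 stood at 15.4 and 20.5 CPM in the pair labelled WT vehicle, 21.7 and 17.1 CPM in WT ifetroban, 34.1 and 23.4 CPM in the KO vehicle libraries, and 34.4, 29.5 and 39.6 CPM in KO ifetroban. The genotypes did not overlap, with KO vehicle 2 nearest to the WT libraries, and the log2 fold change was 0.76 (SE 0.15, edgeR adjusted p = 0.0295). H2-Eb1, the beta chain of I-E, stood at 15.3 and 20.9 CPM in the pair labelled WT vehicle, 20.8 and 14.5 CPM in WT ifetroban, 29.5 and 23.8 CPM in the KO vehicle libraries, and 28.4, 25.8 and 38.4 CPM in KO ifetroban. Its genotypes did not overlap either, and its log2 fold change of 0.69 (SE 0.17) missed the threshold (edgeR adjusted p = 0.0614). Within a library, H2-Aa to H2-Ab1 kept a ratio of CPM of 1.04 to 1.28 and H2-Eb1 to H2-Ab1 one of 0.826 to 1.02.

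Cd74, the invariant chain, had 44.1 and 53.5 CPM in the pair labelled WT vehicle, 58.9 and 45.0 CPM in WT ifetroban, 90.4 and 66.1 CPM in the KO vehicle libraries, and 93.1, 78.6 and 103.7 CPM in KO ifetroban. No KO library was as low as a WT library, and the log2 fold change was 0.76 (SE 0.14, edgeR adjusted p = 0.0217). The ratio of Cd74 to H2-Aa was 2.21 to 2.70 across the 9 libraries.

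H2-DMb1 had 1.38 and 1.82 CPM in the pair labelled WT vehicle, 2.06 and 1.12 CPM in WT ifetroban, 3.61 and 2.93 CPM in the KO vehicle libraries, and 5.48, 3.40 and 3.71 CPM in KO ifetroban, on 27 to 117 counts. Its log2 fold change of 1.22 was the largest of the 28 members (SE 0.24, edgeR adjusted p = 0.0274). Because H2-DMb1 shares sequence with H2-DMb2, their sum was formed too, and it ran from 1.499 to 2.67 CPM in WT and from 3.29 to 6.09 CPM in KO. H2-DMa, the partner chain, had 2.36 and 3.16 CPM in the pair labelled WT vehicle, 2.14 and 1.67 CPM in WT ifetroban, 4.21 and 2.61 CPM in the KO vehicle libraries, and 5.62, 3.85 and 4.76 CPM in KO ifetroban. KO vehicle 2 lay inside the WT range of H2-DMa, and its log2 fold change of 0.84 (SE 0.26) did not pass (edgeR adjusted p = 0.135). H2-Oa and H2-Ob, the chains of the H2-DM inhibitor H2-O, were low: H2-Ob ran from 0.541 to 1.25 CPM, with a log2 fold change of 0.05, and H2-Oa, which was not tested, from 0 to 0.493 CPM. H2-DMb2, a second H2-DM beta gene, ran from 0.361 to 0.835 CPM, with a log2 fold change of 0.18.

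Ciita, on 6 to 74 counts, had 0.308 and 1.90 CPM in the pair labelled WT vehicle, 1.41 and 1.29 CPM in WT ifetroban, 2.05 and 0.883 CPM in the KO vehicle libraries, and 1.54, 2.35 and 2.38 CPM in KO ifetroban. The library labelled WT vehicle 1 was the lowest of all and WT vehicle 2 the highest WT value, and the log2 fold change of 0.52 (SE 0.41) did not pass (edgeR adjusted p = 0.57).

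**Figure D1:**
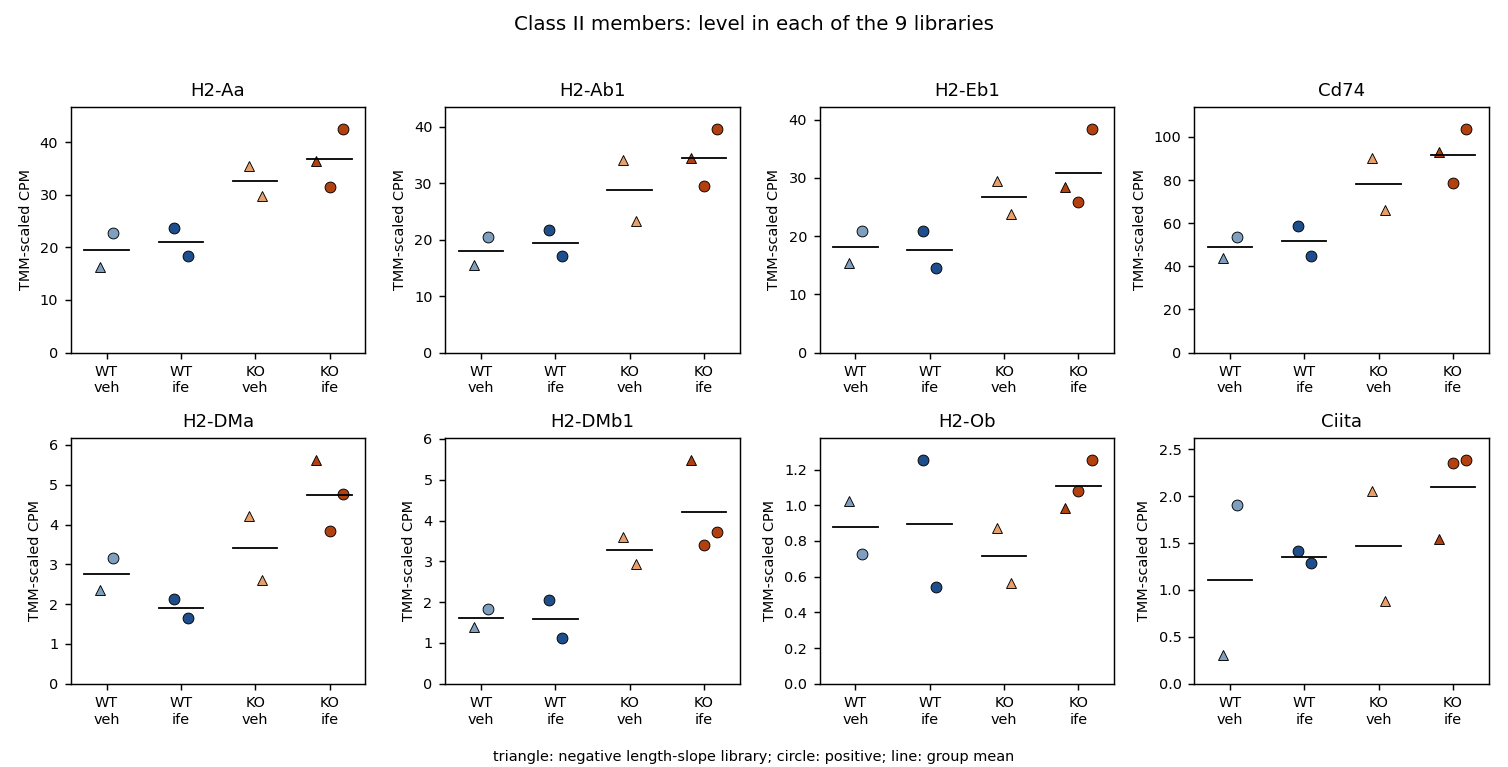
Level of class II members in each library, in TMM-scaled CPM on the vertical axes from 0, by group on the horizontal axes (points are libraries, lines group means, triangles the 4 libraries with a negative length slope). For H2-Aa the KO libraries ran from 29.8 to 42.5 CPM, all above the WT range of 16.3 to 23.7 CPM.

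The classical class I heavy chain H2-D1 had 145.0 and 166.2 CPM in the pair labelled WT vehicle, 157.4 and 124.4 CPM in WT ifetroban, 182.3 and 182.9 CPM in the KO vehicle libraries, and 178.9, 152.6 and 203.8 CPM in KO ifetroban. KO ifetroban 2 lay inside the WT range, and the log2 fold change was 0.29 (edgeR adjusted p = 0.234). H2-K1, the other classical heavy chain, had 96.5 and 124.2 CPM in the pair labelled WT vehicle, 104.7 and 84.1 CPM in WT ifetroban, 126.0 and 123.7 CPM in the KO vehicle libraries, and 126.4, 104.9 and 141.3 CPM in KO ifetroban. Its genotypes overlapped and its log2 fold change was 0.30 (edgeR adjusted p = 0.273). The ratio of H2-D1 to H2-K1 held within 1.34 to 1.503 in the 9 libraries.

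B2m, the common light chain, had 139.6 and 129.5 CPM in the pair labelled WT vehicle, 135.5 and 96.0 CPM in WT ifetroban, 179.5 and 189.6 CPM in the KO vehicle libraries, and 179.8, 124.5 and 151.4 CPM in KO ifetroban. KO vehicle exceeded both WT groups and KO ifetroban 2 lay among the WT values, and the log2 fold change of 0.42 (SE 0.13) did not pass (edgeR adjusted p = 0.138). H2-T22, a class Ib chain and ligand of a gamma delta T cell receptor, had the lowest p of the class I genes, with a log2 fold change of 0.40 (edgeR adjusted p = 0.11). Its WT libraries ran from 12.1 to 16.6 CPM and its KO libraries from 16.3 to 22 CPM, so KO ifetroban 2 alone lay inside the WT range. H2-T23, the Qa-1 heavy chain that shows leader peptides to NK cell receptors, ran from 21.6 to 28.3 CPM in WT and from 23.1 to 34.8 CPM in KO, with a log2 fold change of 0.28 (adjusted p = 0.28). H2-Q4 ran from 23.8 to 39.1 CPM, and the Qa-2 genes H2-Q6 from 8.36 to 20.95 CPM and H2-Q7 from 8.82 to 19.5 CPM, with log2 fold changes of 0.16, 0.09 and 0.10. H2-T24 ran from 4.03 to 7.13 CPM (-0.02), H2-M3 from 1.88 to 3.95 CPM (0.29), H2-T10 from 0.727 to 1.40 CPM (0.26), H2-Q5 from 0.616 to 2.51 CPM (-0.02) and H2-Q10 from 0.228 to 0.983 CPM (0.10). In all of these the genotypes overlapped. H2-Q5 and H2-T10 are annotated as polymorphic pseudogenes.

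Tap1, a chain of the peptide transporter, had 5.90 and 13.7 CPM in the pair labelled WT vehicle, 9.85 and 6.66 CPM in WT ifetroban, 9.19 and 9.80 CPM in the KO vehicle libraries, and 8.61, 8.29 and 11.3 CPM in KO ifetroban. Its lowest and highest values were those labelled WT vehicle 1 and 2, and its log2 fold change was 0.08 (edgeR adjusted p = 0.903). Tap2, the other transporter chain, ran from 29.1 to 40.5 CPM, and Tapbp, the tapasin that bridges transporter and heavy chain, from 74.2 to 89.9 CPM. Both had a log2 fold change of 0.06 and overlapped between the genotypes. Nlrc5, the class I transactivator, on 38 to 155 counts, had 1.95 and 6.28 CPM in the pair labelled WT vehicle, 3.07 and 2.54 CPM in WT ifetroban, 2.81 and 2.89 CPM in the KO vehicle libraries, and 2.62, 3.15 and 5.41 CPM in KO ifetroban. Its lowest and highest libraries were likewise those labelled WT vehicle 1 and 2, and its log2 fold change was -0.03 (edgeR adjusted p = 0.978). Of the remaining rows, H2-K2 is a pseudogene and H2-Ke6 is Hsd17b8, a steroid dehydrogenase gene within the MHC that is no MHC chain, with 70.5% of its 50-base words also in Gm20427. H2-K2 ran from 0.562 to 0.924 CPM and H2-Ke6 from 33.7 to 47.0 CPM, with log2 fold changes of -0.17 and -0.10.

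**Figure D2:**
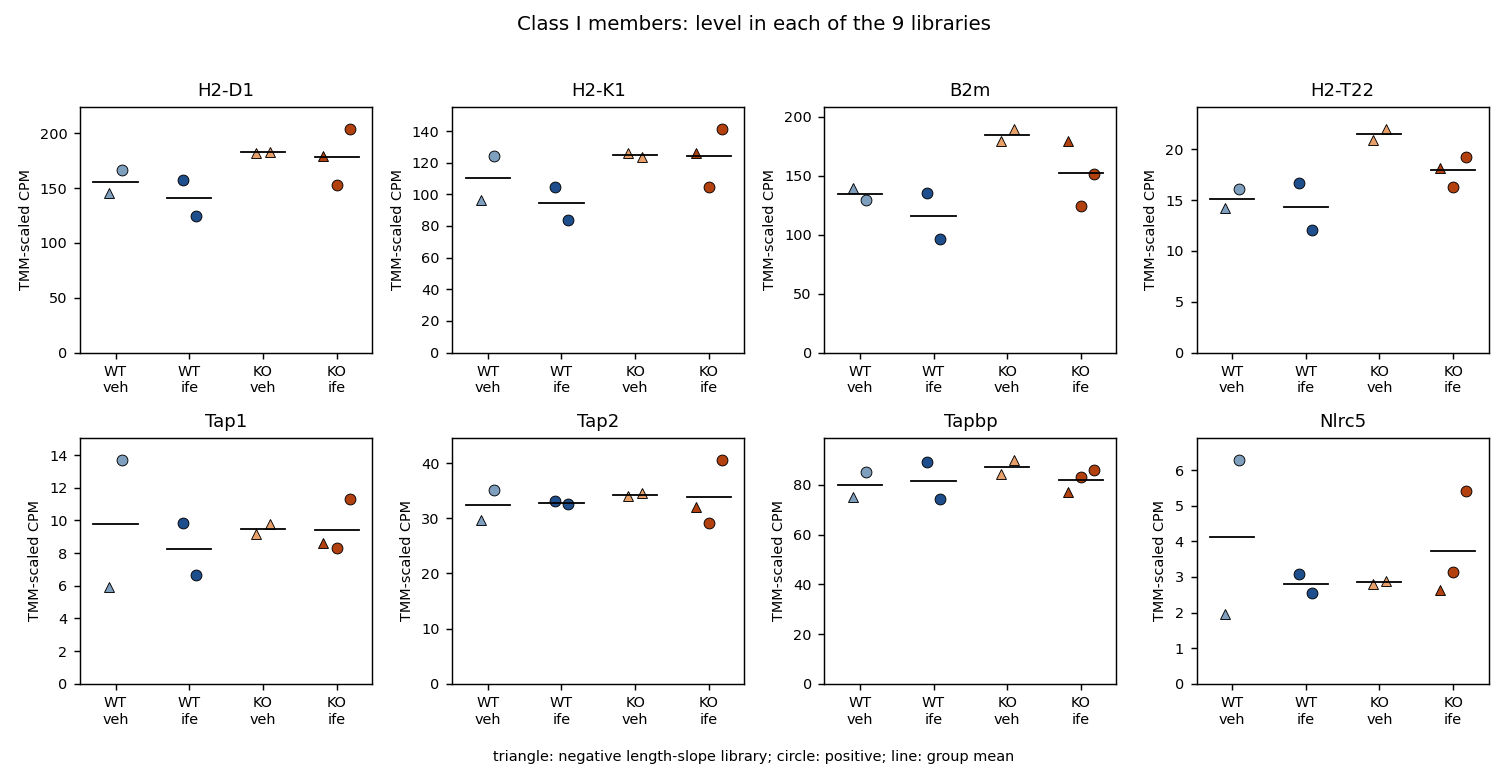
Level of class I members and Nlrc5 in each library, in TMM-scaled CPM from 0, by group (points are libraries, lines group means, triangles libraries with a negative length slope). For H2-D1 the KO libraries ran from 152.6 to 203.8 CPM and the WT libraries from 124.4 to 166.2 CPM, so they overlapped.

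**Figure D3:**
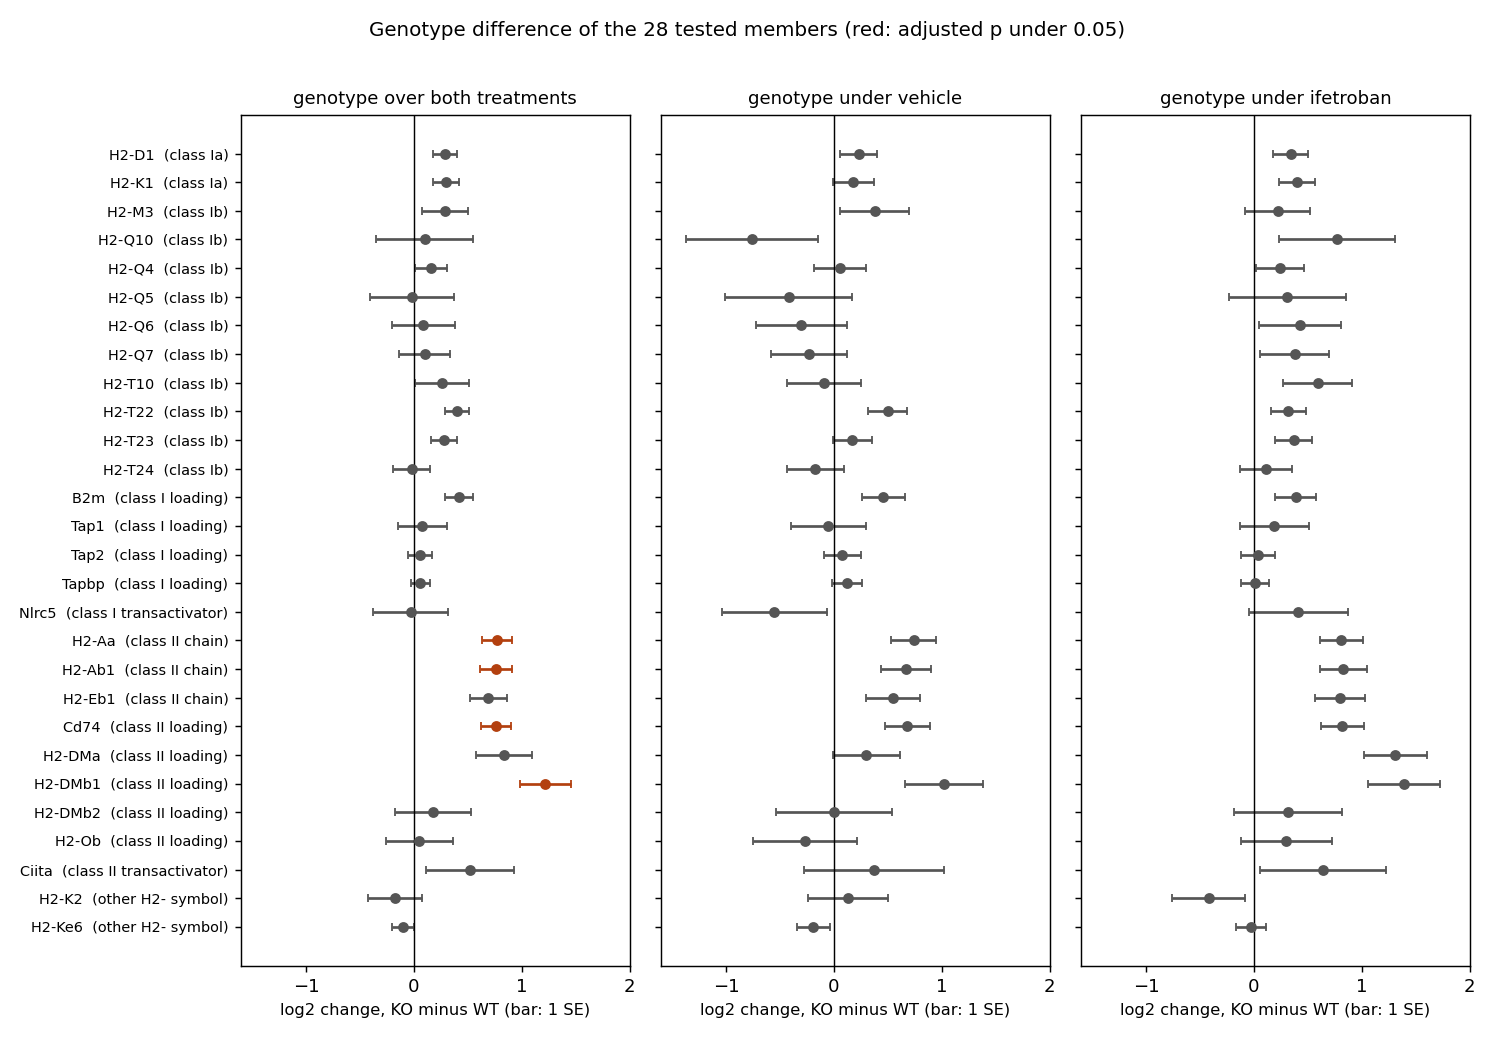
Log2 fold change of KO against WT for the tested members, in panels for both treatments together, vehicle and ifetroban. Bars are 1 SE, red points are members past adjusted p 0.05 and grey points the others. The red points are the class II genes H2-DMb1 at 1.22, H2-Aa at 0.77, Cd74 at 0.76 and H2-Ab1 at 0.76, all over both treatments.

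The 4 calls depended on single libraries. Without WT ifetroban 2 none passed (H2-Aa adjusted p = 0.0974), against 0.292% of genes called higher, and without KO vehicle 1 none passed (H2-Aa adjusted p = 0.0851), against 0.324%. Without WT ifetroban 1 only H2-Aa passed (edgeR adjusted p = 0.0457), against 0.86% of genes. Without KO ifetroban 3, H2-Ab1 no longer passed (adjusted p = 0.0524), against 1.61%. Without the library labelled WT vehicle 1 the 4 members passed, against 2.31% of genes, and without it and KO ifetroban 1, H2-Aa, Cd74 and H2-DMb1 passed, against 2.52%, and H2-Ab1 did not (adjusted p = 0.0553). With the length split as a term in the fit 5 members passed, the 4 and H2-Eb1, against 2.32% of genes. Log2 fold changes were 0.69 to 0.87 for H2-Aa and 0.67 to 0.86 for H2-Ab1 over the 9 fits that each left out 1 library, and the class I median was 0.06 to 0.35.

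**Figure D4:**
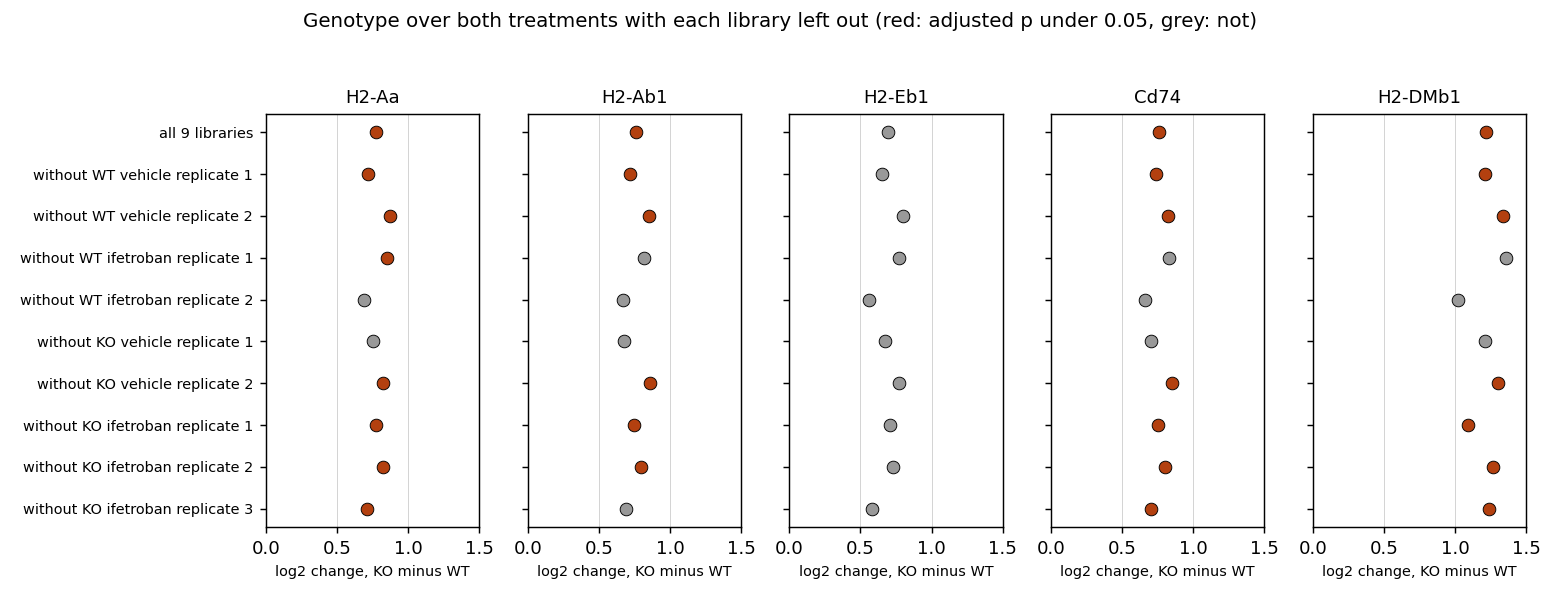
Fits of genotype over both treatments with all 9 libraries and with each left out in turn. Shown are the members that passed and H2-Eb1, which did not pass with all 9 libraries. Log2 fold change of H2-Aa stayed within 0.69 to 0.87, and its adjusted p crossed 0.05 without WT ifetroban 2 and without KO vehicle 1.

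Pan-leukocyte and macrophage transcripts, like the class II genes, were higher in KO. The summed CPM of 8 pan-leukocyte markers ran from 41.8 to 56.0 in WT and from 90.0 to 145 in KO, and that of 14 macrophage markers from 288 to 414 in WT and from 593 to 681 in KO. In genotype over both treatments 8 of 8 pan-leukocyte genes and 11 of 14 macrophage genes were called higher, with median log2 fold changes of 1.16 and 0.86. Of all genes tested, 2.06% were called higher, and 9.31% were higher at an unadjusted p below 0.05. Among them were the phosphatase Ptprc (CD45) at 0.90, Laptm5 at 0.96 and the adaptor Tyrobp at 1.20, and the macrophage genes Lyz2 at 1.04, Adgre1 at 0.68 and Fcgr1 at 1.5. Dendritic cell markers summed to 19.95 to 29.3 CPM in WT and 22.4 to 30.9 CPM in KO, B cell markers to 8.78 to 13.2 and 12.4 to 15.9 CPM, and T and NK cell markers to 1.23 to 2.88 and 2.24 to 3.05 CPM. Of these lists 0 of 5, 0 of 8 and 0 of 3 tested genes were called by edgeR, with 3, 2 and 0 at an unadjusted p below 0.05. Of the 10 dendritic cell genes listed, 4 stayed under 0.5 CPM in every library (Clec9a, Xcr1, Batf3 and Siglech). Among the 5 tested, 4 had a positive log2 fold change, with a median of 0.59. The smallest p-values in these lists were those of Cd209a (2.06, edgeR adjusted p = 0.112) and Itgax (1.62, 0.197), of Ighm (0.41, 0.263), and of Lck (0.91, 0.445) and Cd4 (-0.24, 0.809). In bulk tissue, a change in the number of cells of a type and a change in RNA per cell cannot be told apart. The part of cell number in the class II result was not tested. Neutrophil markers had a median log2 fold change of 1.64 with 0 of 5 called and 5 at an unadjusted p below 0.05, led by Csf3r at 1.34 and S100a8 at 1.86. For fibroblast markers the median was 0.36 with 2 of 7 called, the collagen genes Col1a1 at 0.91 and Col1a2 at 0.72. Cardiomyocyte markers had a median of -0.15 with 0 of 8 called and 2 lower at an unadjusted p below 0.05 (Myh6 -0.46, Ttn -0.53), and endothelial markers -0.07 with 0 of 8 called and 0 at that level (Emcn 0.14, Vwf 0.28). Of atrial and skeletal muscle markers 1 of 2 tested was called, Nppa, at 1.48, and the median was 0.87. Myl7, of the same list, stayed under 0.5 CPM in every library.

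**Figure D5:**
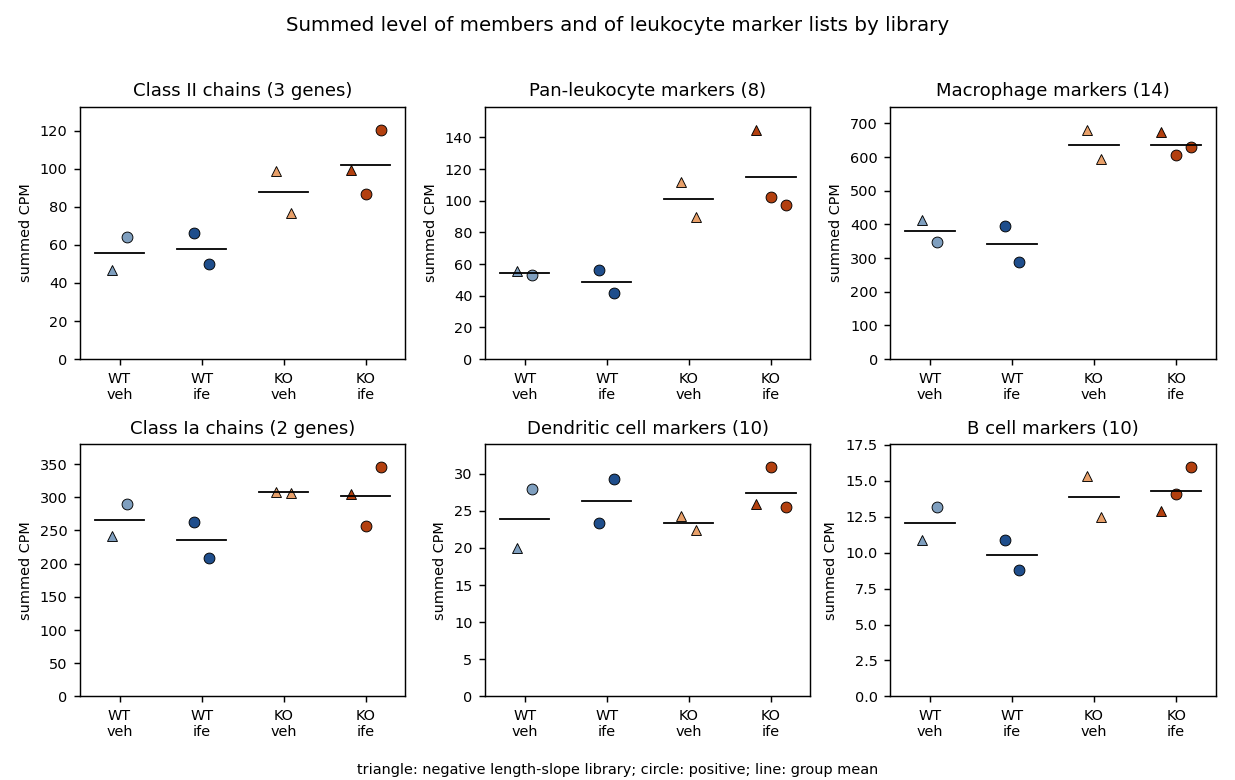
Summed level per library, in CPM from 0, of class II chains, class Ia chains and 4 leukocyte marker lists, by group (points are libraries, lines group means). The class II chains ran from 77.0 to 121 CPM in KO against 47.1 to 66.2 CPM in WT, while the class Ia chains overlapped at 257 to 345 and 208 to 290 CPM.

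Among other genes of the class II pathway, 2 of 12 tested partners passed, both higher, against 2.06% of genes called higher. All 9 with an unadjusted p below 0.05 were higher, against 9.31% of genes. Ctss, the lysosomal protease that trims the invariant chain, rose (log2 fold change 1.32, SE 0.15, edgeR adjusted p = 0.00365), and so did the carboxypeptidase Ctsz (0.74, adjusted p = 0.017), and the list's median was 0.34. Of 15 class I partners none passed with edgeR, 5 were higher and 1 lower at an unadjusted p below 0.05, with a median of 0.24, where Sec61a1, a translocon subunit, had 0.42 (adjusted p = 0.068) and Ide, an insulin-degrading protease, had -0.58 (adjusted p = 0.117). None of 10 factors that act at class II promoters passed, 1 had an unadjusted p below 0.05, with a median of -0.11, where Rfxank had 0.37 (adjusted p = 0.21) and the acetyltransferase Ep300 had -0.41 (adjusted p = 0.35). Of 14 genes of the interferon gamma axis 1 passed, the myeloid factor Irf8 (0.73, SE 0.13, edgeR adjusted p = 0.0217). In that list 2 were higher at an unadjusted p below 0.05, and the median was -0.06. Among 5 other antigen presenting molecules none passed and 0 had an unadjusted p below 0.05, with a median of 0.20, Hfe at 0.20 (adjusted p = 0.342) and Procr at 0.61 (adjusted p = 0.428).

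Within vehicle-treated mice, comparing KO with WT called no member. At an unadjusted p below 0.05 there were 5 members, all higher, against 5.21% of genes, and 0 passed adjustment where 0.0515% of all genes did. DESeq2 and limma-voom also called 0 members, against 0.926% and 0.0386% of genes. H2-Aa had a log2 fold change of 0.74 (SE 0.21, edgeR adjusted p = 0.377), Cd74 0.68 (SE 0.21, adjusted p = 0.409) and H2-Ab1 0.67 (SE 0.23, adjusted p = 0.476). The class II median was 0.61, from 0.38 to 0.81 with 1 library left out, and the class I median 0.07, from -0.07 to 0.34. With the length split as a term 0 members passed, against 0.759% of genes, and H2-Aa had 0.85 (adjusted p = 0.126). In 10 members both KO vehicle libraries lay above both WT vehicle libraries, against 18.3% of genes. In the 4 libraries of negative length slope the only WT library was the one labelled WT vehicle 1, with Sgcd in the KO range, and the spread came from the pair of KO vehicle libraries alone. There H2-Aa (1.01, edgeR adjusted p = 0.0169) and H2-Eb1 (0.80, adjusted p = 0.0498) passed, against 1.19% of genes called higher. Without the library labelled WT vehicle 1 and KO ifetroban 1 a single member passed, Nlrc5, which was lower (-1.13, edgeR adjusted p = 0.0497), against 6.2% of genes called lower, and WT vehicle was then 1 library assumed to vary like the other groups. That library and both KO vehicle libraries lay on opposite sides of the length split, so genotype and the split cannot be told apart in this fit. Nlrc5 turned with the WT library kept: its log2 fold change was -0.55, -1.13 without the library labelled WT vehicle 1, and 0.55 without WT vehicle 2. Ciita, in the same order, had 0.37, -0.37 and 2.24.

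Under ifetroban, comparing KO with WT called no member with edgeR, against 0.0386% of genes, and 7 members, all higher, had an unadjusted p below 0.05, against 6.24% of genes. H2-DMa had a log2 fold change of 1.31 (SE 0.29, edgeR adjusted p = 0.141), H2-DMb1 1.39 (SE 0.33, adjusted p = 0.162) and Cd74 0.82 (SE 0.20, adjusted p = 0.163). DESeq2 called 5 members in this comparison, Cd74, H2-DMa, H2-Aa, H2-DMb1 and H2-Ab1, with adjusted p from 0.00746 to 0.022, against 1.67% of genes called higher, and limma-voom called 0, against 0.045%. The class II median was 0.81, from 0.64 to 1.02 with 1 library left out, and the class I median 0.33, from 0.10 to 0.49, with 0.10 without KO ifetroban 3. With the length split as a term 0 members passed, against 0.92% of genes, and in the positive-slope libraries alone 0, against 0.386%, where H2-DMa had 1.27 and 1.19 and Cd74 0.85 and 0.83. In 10 members the 3 KO libraries lay above both WT libraries, against 14% of genes, and H2-K2 lay below, against 15%. Ctss was called here too (1.54, SE 0.18, edgeR adjusted p = 0.0331). The genotype comparisons under each drug use the same libraries as the one over both treatments and are no separate evidence.

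Ifetroban was not shown to change any member in either genotype. In KO mice 0 members had an unadjusted p below 0.05, against 3.96% of genes, and in WT mice also 0, against 2.25% of genes, and edgeR, DESeq2 and limma-voom each called 0 members and 0% of genes. With the length split as a term edgeR also called 0 members and 0% of genes in either genotype. In the KO libraries of negative slope alone, with 1 ifetroban library, 0 members passed, against 0.117% of genes, and in the positive-slope libraries alone, with 1 WT vehicle library, 0 members and 0% of genes passed in WT. Without the library labelled WT vehicle 1 and KO ifetroban 1, 0 members passed in KO, against 11.6% of genes. B2m, lower, was then the 1 member at an unadjusted p below 0.05, against 1950 of 15999 genes that were lower at that level. The KO vehicle and KO ifetroban libraries then lay on opposite sides of the length split, so drug and split cannot be told apart in that fit. In KO the smallest p-values were those of H2-Q10, a secreted class Ib chain, at a log2 fold change of 1.08 (SE 0.55), H2-DMa at 0.47 (SE 0.28) and H2-T22 at -0.26 (SE 0.16), each with an edgeR adjusted p of 0.862. With KO ifetroban 1 counted as vehicle, as its treatment field says, H2-Q10 had 0.00, H2-DMa 0.06 and H2-T22 -0.20, and without KO vehicle 2 H2-DMa had 0.17. In WT they were those of H2-T10 at -0.75 (SE 0.35), H2-DMa at -0.54 (SE 0.32) and H2-T23, the Qa-1 heavy chain, at -0.30 (SE 0.18), each with an adjusted p of 0.881. Groups did not overlap in KO for 2 members higher and 3 lower, against 10.4% and 9.76% of genes, and in WT for 0 higher and 6 lower, against 17.6% and 13.8%. The class II median was 0.25 in KO, from 0.06 to 0.54 with 1 library left out, and 0.01 in WT, from -0.42 to 0.27. The class I median was -0.03 in KO, from -0.12 to 0.09, and -0.24 in WT, from -0.39 to 0.06, so single libraries set the sign of 3 of these 4 medians.

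The ifetroban effect was not shown to differ between the genotypes for any member. EdgeR, DESeq2 and limma-voom each called 0 members and 0% of genes. With the length split as a term edgeR also called 0 members and 0% of genes. Without the library labelled WT vehicle 1 and KO ifetroban 1, WT vehicle was 1 library, and the KO drug groups lay again on opposite sides of the length split. The difference of log2 fold changes was then 1.07 for H2-DMa, 1.75 for Nlrc5, 0.78 for Tap1 and -0.25 for B2m. With all 9 libraries, 1 member had an unadjusted p below 0.05, H2-DMa, against 1.92% of genes. Its difference of log2 fold changes was 1.01 (SE 0.42, edgeR adjusted p = 1), and 0.60 with KO ifetroban 1 counted as vehicle. H2-Q10 (1.52, SE 0.82) and H2-T10 (0.68, SE 0.47) followed, with 0.45 and 0.47 under that count, and both were low, at up to 0.983 and 1.40 CPM.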

How the data were processed

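Left ventricular RNA of 9 libraries was analysed. The authors deposited expected counts per gene for each library, made with bcl2fastq, STAR and Partek on mm10, per the submitters' processing notes. Not given in the sources used here were their versions, the annotation and the strandedness. Values (28.2% not whole) were rounded, genes were kept with filterByExpr (minimum count 10), and 15549 genes were tested with edgeR 4.0.16 quasi-likelihood fits (robust, TMM, R 4.3.3), Benjamini-Hochberg adjusted over all of them at 0.05. Group means gave 4 pairwise comparisons and the interaction, and an additive fit gave genotype over both treatments. DESeq2 1.42.0, limma-voom 3.58.1, other filters and factors, a length-slope term and leaving out each library were alternatives. Scripts were tested on simulated data. Exon lengths and shared 50-base words used GENCODE M21 models on GRCm38, whose coordinates equalled the deposited ones for 17 of 29 members. Per-library values were given for the main chains, B2m, Tap1, the transactivators and the loading genes. In each comparison, members past the threshold, or the 3 with the smallest p, were named, and from each of 15 gene lists the members past it (up to 3) or the 2 with the smallest p, for genotype over both treatments, of which 1 is not reported here. Members and lists were chosen with earlier results of these data known.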

Additional observations from a re-analysis of the deposited data

Results flagged for a closer look

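In 58 groups of 4 or 5 libraries tested by Dixon's rule, where chance flags about 1 in 20, 3 members had a library apart from the others of its genotype. In KO, Nlrc5 stood at 5.41 CPM in KO ifetroban 3, with the nearest library at 3.15 CPM. H2-Q7, a class Ib chain, stood at 19.5 CPM in KO ifetroban 3, with the nearest at 12.4 CPM. H2-M3, a class Ib chain that presents formylated peptides, stood at 1.88 CPM in KO ifetroban 2, with the nearest at 3.65 CPM. None of these 3 members passed the edgeR test of genotype over both treatments.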

How the results depend on the processing

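For genotype over both treatments, 4 members passed; leaving out 1 library gave 0 to 4, with 0 without KO vehicle 1 and without WT ifetroban 2, 1 without WT ifetroban 1 and 3 without KO ifetroban 3, and DESeq2 gave 7. For genotype under vehicle, 0 became 2 in the libraries of negative length slope alone and 1 (Nlrc5, log2 fold change -1.13, lower) without the library labelled WT vehicle 1 and KO ifetroban 1, a setting chosen after seeing the data. Under ifetroban, 0 became 5 with DESeq2. The cause was not tested. Per kilobase of the longest transcript, H2-D1 stood at 78.9, H2-K1 at 61.2 and H2-Ab1 at 21.6 CPM. No value called in the main fits changed sign. The log2 fold change of Nlrc5 under vehicle did, from -0.55 to 0.55 without WT vehicle 2. The uncalled median log2 fold changes of class I or class II members changed sign for 5 comparisons and classes (18 settings in all). With the replicate number as a block, 4 members passed in genotype over both treatments, and over all genes 53 were called higher and 3 lower under vehicle, against 6 and 2 without it, 155 and 17 under ifetroban, against 4 and 2, and 440 and 110 over both treatments, against 321 and 42. The class I median under ifetroban was then 0.08, against 0.33. The labels do not pair the numbers. Deviations from the group mean correlated at -0.09 to 0.60 between same-numbered libraries, and at -0.60 to 0.39 between other numbers. In groups of 2 libraries the deviations mirror each other, so these ranges cannot decide on pairing. The 0.60 was that of the library labelled WT vehicle 1 with KO ifetroban 1, both of negative length slope. Fits within a length-slope set were run for comparisons of 2 groups where each group had a library. They were not run for genotype over both treatments, although both sets held libraries of both genotypes. Low counts limit Ciita, Nlrc5, H2-Q10 and H2-T10.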
